A study of Mus musculus with 8 samples.

Results

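The transcripts examined here are those of the 3 large gene families of conjugating enzymes in mouse liver: the UDP-glucuronosyltransferases (Ugt), the cytosolic sulfotransferases (Sult) and the cytosolic and mitochondrial glutathione S-transferases (Gst). Members were taken by symbol, as Ugt1 to Ugt3, Sult1 to Sult6 and the alpha, kappa, mu, omega, pi, theta and zeta classes of Gst, with 3 pseudogenes left out. This gave 61 of the 34745 genes in the deposited table, namely 21 Ugt, 19 Sult and 21 Gst genes. Of these, 46 had enough reads to be tested (16 Ugt, 11 Sult and 19 Gst) and 15 did not. Of these 15, 5 had no read in any library (Sult1c1, Sult2a3, Ugt1a8, Ugt2a1 and Ugt2a2), and of the others only Sult3a1 exceeded 1.82 CPM in any library. Positions below are those of the deposited table, on GRCm38.

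RNA was sequenced from livers of age-matched male mice in which the carcinogen diethylnitrosamine (DEN) had induced hepatocellular carcinoma, 8 months after DEN. Vector mice had been injected with the pT3 plasmid alone, and mA3 mice with a pT3 plasmid that carries mouse APOBEC3B per the tissue labels and mA3 per the titles. From vector mice numbered 1 and 9 and mA3 mice numbered 1 and 2 there is both a tumour library and one of relatively normal tissue (adjacent liver below), making 4 groups of 2 libraries. All 8 libraries, controls included, come from DEN-treated mice, and no untreated liver is among them. That the numbers stand for separate animals is taken from the titles alone, so the p-values measure the spread between these samples.

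Conjugation is the second step of detoxification: a polar group is joined to a drug, hormone, bilirubin, bile acid or carcinogen so that it can leave in bile or urine. Ugt enzymes sit in the endoplasmic reticulum and transfer glucuronic acid, Sult enzymes are cytosolic and transfer sulfate from the donor PAPS, and Gst enzymes join glutathione to electrophiles. Hepatocytes are the main site of all 3 families, and several members differ between male and female mouse liver.

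Many members are close copies, which bears on how reads can be assigned to them, so the sequences of a pair are shown first. They are from open reading frames found in GENCODE vM21 transcripts, with capitals at the positions that differ between the pair. Ugt3a1 and Ugt3a2 lie beside each other on chromosome 15, and the first 120 bases of their reading frames differ at 12 positions:
Ugt3a1: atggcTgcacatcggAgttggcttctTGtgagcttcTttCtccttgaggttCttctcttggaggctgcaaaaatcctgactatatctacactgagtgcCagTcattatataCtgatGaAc
Ugt3a2: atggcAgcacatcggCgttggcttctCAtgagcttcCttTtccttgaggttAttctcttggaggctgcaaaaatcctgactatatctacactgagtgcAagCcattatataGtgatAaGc
Over the whole reading frame this pair was 93.3% identical, yet only 9.39% of the 50-base windows of either transcript occurred in another gene. The Ugt1a genes are different: they are nested on chromosome 1, as a rule each with its own first exon, and they share the remaining exons. In the transcripts used here the reading frames of Ugt1a6a and Ugt1a7c were 100% identical, so this pair cannot be told apart by them. Each of the 9 Ugt1a genes shared over 50% of its 50-base windows with another gene, with a median of 64.0%. Reads from the shared part cannot be told apart, so the values of single Ugt1a genes are uncertain, and how such reads were counted is not given in the sources used here. No window was shared for Ugt2b1, Sult1b1, Sult2a7, Sult2a8, Sult2b1 or Gstk1.

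Promoters are shown for 4 members on which the results turn: Ugt2b1 and Sult2a8, which fell in tumours, Sult2b1, which rose, and Gsta3, an abundant member that did not pass. They are as RefSeq gives them for GRCm38.p6, from 250 bases before to 50 bases after the start of the gene. Capitals mark a match, searched on both strands, to TGACNNNGC, letters of the antioxidant response element that the factor NRF2 binds. Gsta3 (chr1:21240335-21240634, plus strand) holds a match, and Ugt2b1 (chr5:86926454-86926753, minus strand), Sult2a8 (chr7:14446538-14446837, minus strand) and Sult2b1 (chr7:45759563-45759862, minus strand) hold none:
Gsta3: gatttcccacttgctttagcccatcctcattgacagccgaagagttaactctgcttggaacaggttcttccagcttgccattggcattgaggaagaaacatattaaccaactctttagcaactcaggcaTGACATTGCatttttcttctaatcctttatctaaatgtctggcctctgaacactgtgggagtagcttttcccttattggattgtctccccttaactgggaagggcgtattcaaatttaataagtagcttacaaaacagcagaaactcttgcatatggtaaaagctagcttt
Ugt2b1: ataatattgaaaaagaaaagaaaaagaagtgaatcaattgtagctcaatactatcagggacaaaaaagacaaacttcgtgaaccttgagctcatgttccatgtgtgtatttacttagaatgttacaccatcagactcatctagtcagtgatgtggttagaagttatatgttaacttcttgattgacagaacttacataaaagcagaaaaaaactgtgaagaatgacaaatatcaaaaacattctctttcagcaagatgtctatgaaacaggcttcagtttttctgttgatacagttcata
Sult2a8: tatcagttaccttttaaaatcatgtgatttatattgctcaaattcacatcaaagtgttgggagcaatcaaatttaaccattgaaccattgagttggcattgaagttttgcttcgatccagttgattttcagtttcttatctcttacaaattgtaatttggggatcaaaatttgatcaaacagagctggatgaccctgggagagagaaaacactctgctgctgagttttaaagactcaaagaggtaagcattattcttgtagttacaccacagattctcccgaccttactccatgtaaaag
Sult2b1: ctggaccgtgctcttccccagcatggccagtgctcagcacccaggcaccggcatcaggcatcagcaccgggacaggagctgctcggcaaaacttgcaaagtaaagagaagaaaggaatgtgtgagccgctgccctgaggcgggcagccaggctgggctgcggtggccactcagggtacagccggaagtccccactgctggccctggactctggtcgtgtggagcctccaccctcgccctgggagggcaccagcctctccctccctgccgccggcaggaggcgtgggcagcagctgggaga
The RefSeq table held a promoter for 53 of the 61 members. These letters were in 2 of the 53 (Gsta3 and Gstm5), against 12.5% of all 27025 promoters. Letters for STAT5, TTCNNNGAA, were in 3 against 8.47%, and letters for HNF4, CAAAGTCCA, in 0 against 0.477%. A match is a description of the letters and not a site shown to be bound.

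Library totals ran from 12969929 to 22882531 counts. Apobec3, taken as the gene on the plasmid, had 2.71 and 9.96 CPM in vector adjacent 1 and 9 and 45.0 and 35.1 CPM in mA3 adjacent 1 and 2, higher in both mA3 libraries (log2 difference 2.67 ± 0.62, SE; adjusted p = 1). In tumours it had 7.85 and 15.2 CPM in vector tumour 1 and 9 and 10.6 and 15.3 CPM in mA3 tumour 1 and 2, and those groups overlapped, so it does not separate mA3 from vector tumours. On the first principal component of all genes vector tumour 1 lay nearest the adjacent libraries (-31.8, against -61.2 to -42.5 for adjacent and 60.7 to 102 for the other tumours), and results that rest on it are marked below.

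The summed level of the Ugt family in tumours was 0.342 times that in adjacent liver, that of the Sult family 0.375 times and that of the Gst family 0.658 times. The unit is CPM, the usual counts-per-million scale, here with library totals scaled by TMM factors. Ugt genes summed to 5149 and 2814 CPM in vector adjacent 1 and 9 and 4155 and 4359 in mA3 adjacent 1 and 2. In tumours they summed to 2273 and 863 CPM in vector 1 and 9 and 1451 and 1049 in mA3 1 and 2, so that every tumour lay below every adjacent library. Sult genes summed to 1935, 1340, 1262 and 1861 CPM in adjacent liver of vector 1, vector 9, mA3 1 and mA3 2 and to 1047, 753, 257 and 345 CPM in the matching tumours. The Sult groups did not overlap either, but this rested on 1 gene: without Sult2a8 the ratio was 0.901. Gst genes summed to 5912, 3486, 7112 and 5285 CPM in adjacent liver and 5367, 1764, 4815 and 2396 CPM in tumours, and these groups overlapped. In CPM each of the 4 mice had a lower sum in its tumour in all 3 families. In FPKM the Gst sum of vector mouse 1 went the other way, from 2639 in adjacent liver to 3054 in the tumour. These sums are given as a description, with no test. In bulk tissue, fewer cells of a type and less RNA per cell cannot be told apart.

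**Figure D1:**
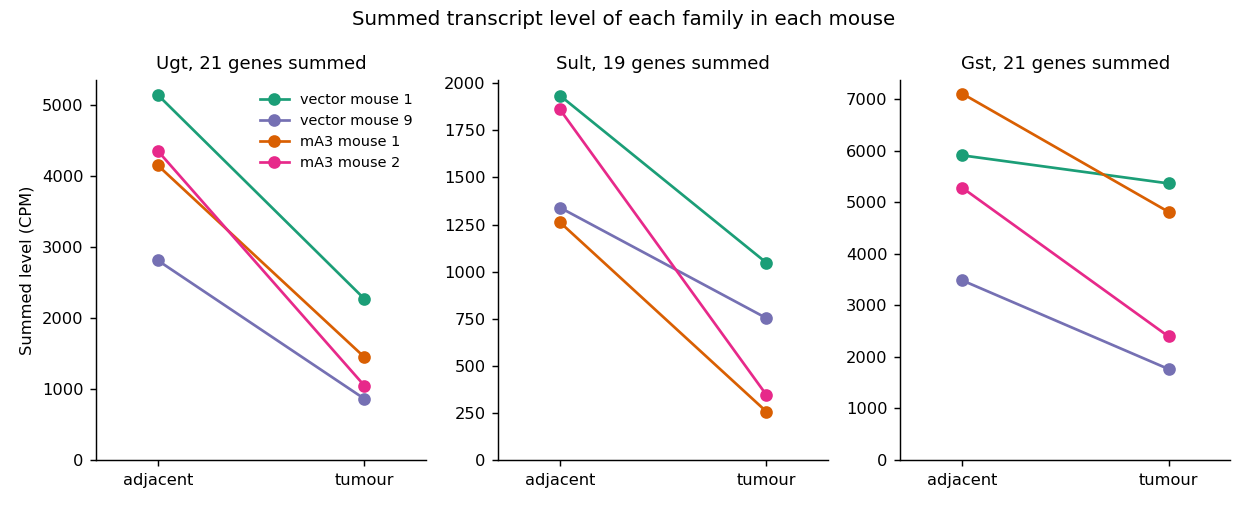
Summed CPM of all members of Ugt, Sult and Gst (vertical axes, each from 0 with its own scale) in the adjacent and tumour library of each mouse, joined by a line. All lines fall; the Ugt and Sult tumours lie below all adjacent libraries, while vector tumour 1 and mA3 tumour 1 keep Gst sums of 5367 and 4815 CPM within the adjacent range.

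Compared gene by gene, tumour against adjacent liver over both plasmids, 11 of the 46 tested members passed (adjusted p under 0.05 over all 15009 genes tested), where 4.64% of all tested genes did. Of these, 9 fell, against 1.69% of all genes that fell, and 2 rose, against 2.94% that rose. The 2 that rose had too few reads in adjacent liver to be tested without their tumour reads. Of 16 tested Ugt genes 5 fell and 0 rose. Of 11 tested Sult genes 3 fell and 2 rose. Of 19 tested Gst genes 1 fell and 0 rose. Counting all tested members, all 16 Ugt differences were below 0, with a median log2 difference of -1.68, as were 6 of 11 for Sult (median -0.54) and 15 of 19 for Gst (median -0.50), where 49.5% of all genes were below 0. At an unadjusted p under 0.05, 14 Ugt, 4 Sult and 6 Gst genes were lower, against 10.6% of all genes. Whether the families differ from each other was not tested.

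The share of all genes called in each fit with a library left out is not given here, so such counts show only dependence on single libraries. Leaving out 1 library at a time changed the count of 11. Taking away vector tumour 1 raised it to 19, and taking away vector adjacent 9 gave 10. It dropped to 2 when mA3 tumour 2 was removed, to 1 for vector tumour 9, and to 0 for any of vector adjacent 1, both mA3 adjacent libraries and mA3 tumour 1. Members at an unadjusted p under 0.05 numbered 28 with all libraries, where 22.4% of all genes had one, and 21 to 32 in those fits, and none of the 11 changed direction in any of the 17 alternatives run.

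**Figure D2:**
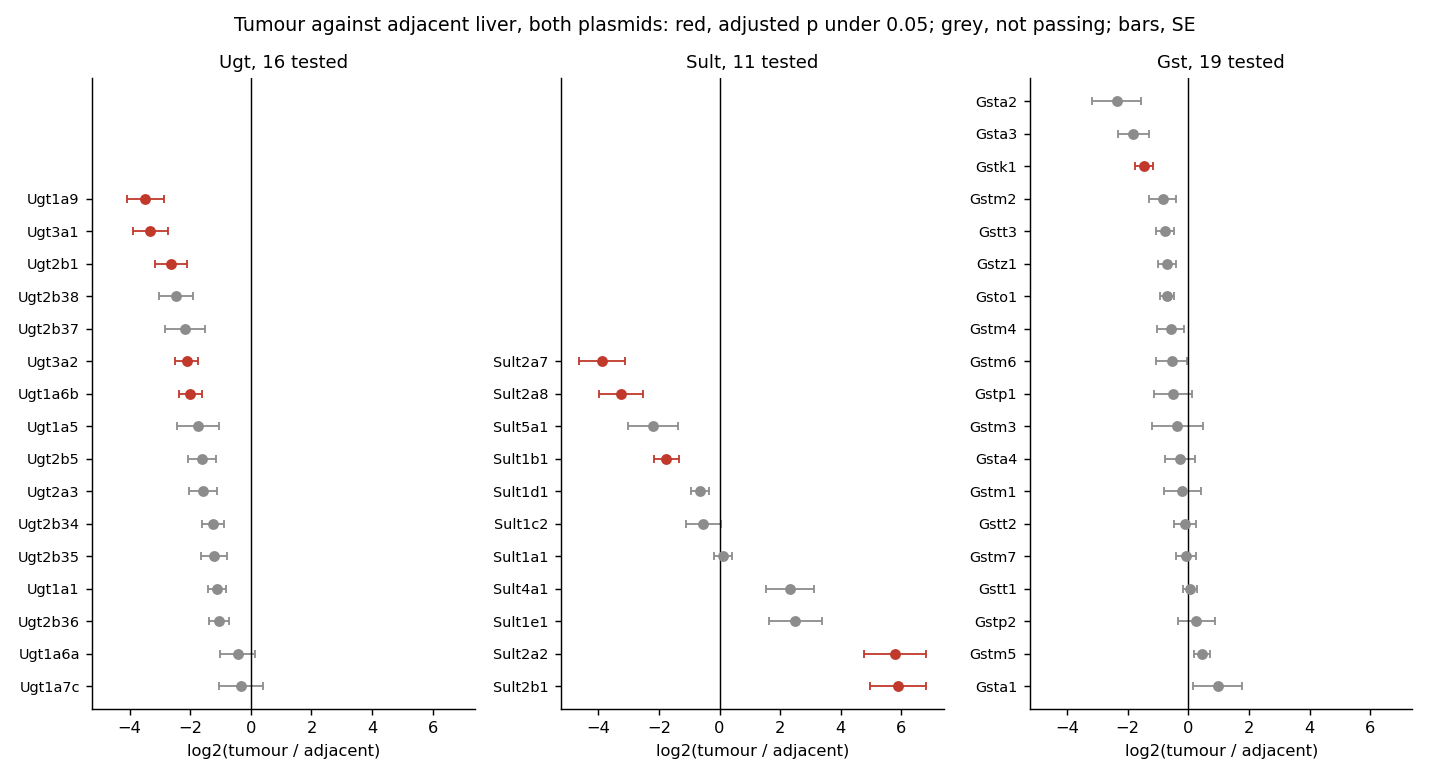
Log2 difference between tumour and adjacent liver over both plasmids (horizontal axis) for each tested member of Ugt, Sult and Gst, with its standard error. Red points passed the threshold and grey points did not. All 16 Ugt points lie left of 0, Sult points run from -3.88 to 5.89, and most Gst points lie within 1 of 0.

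Among the Ugt genes, the largest group by level is Ugt2b, whose enzymes conjugate steroids, bile acids and many drugs. All 7 Ugt2b genes were tested, all 7 were lower in tumours at an unadjusted p under 0.05, and 1 of them, Ugt2b1, passed. Ugt2b1 (ENSMUSG00000035836, chr5:86916638-86926530) had 869.6 and 539 CPM in vector adjacent 1 and 9 and 873 and 834 CPM in mA3 adjacent 1 and 2. In tumours it had 289 and 59.5 CPM in vector tumour 1 and 9 and 125 and 57.2 CPM in mA3 tumour 1 and 2. Every tumour was below every adjacent library, with vector tumour 1 the nearest and vector adjacent 9 the lowest of the adjacent ones. The log2 difference was -2.62 ± 0.53 (SE), adjusted p = 0.0385. Ugt2b38 narrowly missed the threshold at -2.46 ± 0.56 (SE), adjusted p = 0.0502, and its libraries did not overlap either. Ugt2b5, the most abundant Ugt by FPKM (the authors' length-scaled values, used between genes), had 1272, 635, 1081 and 1018 CPM in adjacent liver of vector 1, vector 9, mA3 1 and mA3 2 and 642, 174, 321 and 202 CPM in the tumours. Vector tumour 1 reached vector adjacent 9, so the groups overlapped, and the log2 difference was -1.61 ± 0.46 (SE), adjusted p = 0.0855. Ugt2b5 and Ugt2b38 have reading frames 97.05% identical and shared 41.7% and 37.4% of their windows with another gene, so the split of reads between them is uncertain. Ugt2b36 and Ugt2b34, the other abundant members, stood at -1.04 ± 0.33 (SE), adjusted p = 0.109 and -1.24 ± 0.36 (SE), adjusted p = 0.0897. Ugt2a3, the 1 tested Ugt2a gene, stood at -1.59 ± 0.46 (SE), adjusted p = 0.0892.

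Both Ugt3a genes fell. UGT3A1 is known in humans to transfer N-acetylglucosamine and UGT3A2 glucose, in place of glucuronic acid. Ugt3a1 (ENSMUSG00000072664, chr15:9273319-9315032) had 131 and 107 CPM in vector adjacent 1 and 9 and 73.9 and 120.2 CPM in mA3 adjacent 1 and 2, against 31.6 and 16.0 CPM in vector tumour 1 and 9 and 1.13 and 8.66 CPM in mA3 tumour 1 and 2. The tumour libraries were spread widely but all lay below the adjacent ones, and mA3 tumour 1 was lowest. The log2 difference was -3.31 ± 0.58 (SE), adjusted p = 0.0264. Ugt3a2 (ENSMUSG00000049152, chr15:9335550-9370955) had 365, 270.1, 228 and 290.1 CPM in adjacent liver of vector 1, vector 9, mA3 1 and mA3 2 and 103, 67.4, 24.9 and 77.3 CPM in the tumours, again without overlap and again lowest in mA3 tumour 1. Its log2 difference was -2.12 ± 0.39 (SE), adjusted p = 0.0303. Few of their windows were shared, as the sequences above show.

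Ugt1a genes were much lower in level: the 9 summed to between 51.7 and 115 CPM in adjacent liver and between 22.4 and 45.5 CPM in tumours, with no overlap. Of 6 tested, 2 fell. Ugt1a9 (ENSMUSG00000090175, chr1:88070800-88218997), whose human counterpart glucuronidates bulky phenols, had 22.0 and 5.25 CPM in vector adjacent 1 and 9 and 11.8 and 11.3 CPM in mA3 adjacent 1 and 2. In tumours it had 3.04 and 0.718 CPM in vector tumour 1 and 9 and 0.443 and 0.870 CPM in mA3 tumour 1 and 2. All tumours were below all adjacent libraries, vector tumour 1 standing above the other 3. The log2 difference was -3.49 ± 0.61 (SE), adjusted p = 0.0261. Ugt1a6b (ENSMUSG00000090145, chr1:88103252-88219003), of the Ugt1a6 type that acts on small planar phenols, had 20.0, 8.08, 13.6 and 14.3 CPM in adjacent liver and 2.58, 2.38, 7.08 and 2.90 CPM in tumours of vector 1, vector 9, mA3 1 and mA3 2. mA3 tumour 1 stood above the other tumours but below every adjacent library, and the log2 difference was -1.99 ± 0.39 (SE), adjusted p = 0.0362. Ugt1a1, the enzyme that conjugates bilirubin, was also lower in every tumour than in any adjacent library, at -1.11 ± 0.29 (SE), adjusted p = 0.0729, which did not pass. Ugt1a6a (-0.44 ± 0.57 (SE), adjusted p = 0.703) and Ugt1a7c (-0.32 ± 0.71 (SE), adjusted p = 0.833) had the smallest differences of the family. The Ugt1a6a transcript shared 100% of its windows with another gene, foremost Ugt1a7c, so the values of this pair cannot be read as those of separate genes.

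**Figure D3:**
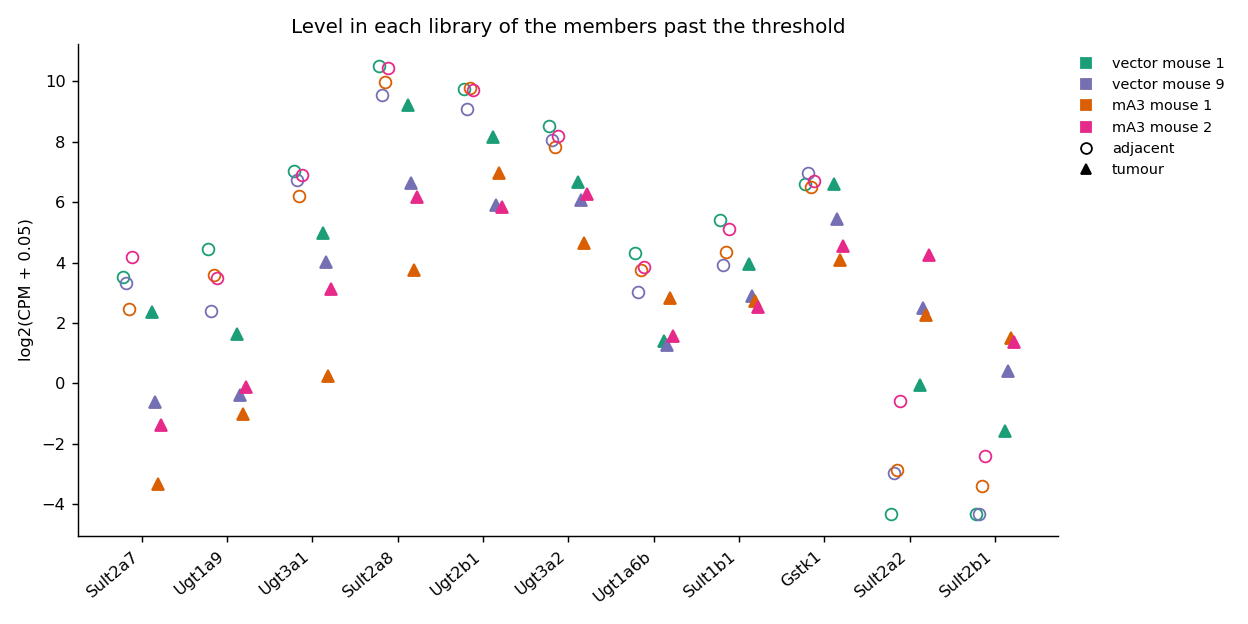
Level in each library, as log2(CPM + 0.05), of the 11 members that passed between tumour and adjacent liver, ordered by their log2 difference. Open circles are adjacent and filled triangles tumour libraries, coloured by mouse. Vector tumour 1 is the tumour nearest to the adjacent libraries for most genes that fell; Gstk1 and Sult1b1 overlap between tissues, and Sult2a2 and Sult2b1 are higher in all 4 tumours.

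Of the Sult genes, Sult2a8 fell most in absolute level. It is a bile acid sulfotransferase of mouse liver and was the most abundant Sult gene of adjacent liver by FPKM. Sult2a8 (ENSMUSG00000030378, chr7:14410686-14446769) had 1450.0 and 759 CPM in vector adjacent 1 and 9 and 1006 and 1387 CPM in mA3 adjacent 1 and 2. In tumours it had 599 and 98.8 CPM in vector tumour 1 and 9 and 13.3 and 71.3 CPM in mA3 tumour 1 and 2. Every tumour lay below every adjacent library, and vector tumour 1 lay close to vector adjacent 9 and far above the other tumours. The log2 difference was -3.24 ± 0.72 (SE), adjusted p = 0.0463. Its neighbour Sult2a7 (ENSMUSG00000094156, chr7:14465159-14492926) had 11.4, 9.88, 5.49 and 18.3 CPM in adjacent liver of vector 1, vector 9, mA3 1 and mA3 2 and 5.10, 0.608, 0.0492 and 0.332 CPM in the tumours. The groups did not overlap, although vector tumour 1 came close to mA3 adjacent 1. The last value but one is a single count, and the log2 difference was -3.88 ± 0.77 (SE), adjusted p = 0.0370. Sult1b1 (ENSMUSG00000029269, chr5:87513339-87538195), which sulfates thyroid hormones, had 42.3, 15.0, 20.4 and 34.8 CPM in adjacent liver and 15.4, 7.29, 6.54 and 5.72 CPM in tumours. Vector tumour 1 and vector adjacent 9 were at almost the same level, so the groups overlapped. The log2 difference of -1.75 ± 0.40 (SE), adjusted p = 0.0499 lay at the edge of the threshold.

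In the opposite direction, 2 Sult genes that were close to absent from adjacent liver rose. Both had too few reads in adjacent liver to be tested on those alone, so their entry to the test depended on their tumour reads. A gene equally low in tumours would not have been tested. Sult2b1 (ENSMUSG00000003271, chr7:45729983-45759612), which sulfates cholesterol and pregnenolone and is known mainly from skin, had 0, 0, 1 and 2 counts in adjacent vector 1, vector 9, mA3 1 and mA3 2 and 5, 23, 57 and 61 counts in the tumours. In CPM the tumours held 0.287, 1.27, 2.80 and 2.53 CPM, all above the adjacent libraries, and vector tumour 1 was lowest. The ratio of summed counts, tumour to adjacent, was 42.7 after each side was scaled by its TMM-scaled library totals. Its exact 95% interval of 14.3 to 209.5 covers counting error only. The fitted log2 difference was 5.89 ± 0.93 (SE), adjusted p = 0.0257. Sult2a2 (ENSMUSG00000070811, chr7:13733505-13779636), a hydroxysteroid sulfotransferase, had 0, 1, 2 and 9 counts in adjacent liver and 16, 101, 97 and 455 in tumours, with no overlap. The ratio of summed counts, scaled in the same way, was 48.9 (exact 95% interval 27.8 to 95.2). The fitted log2 difference was 5.79 ± 1.03 (SE), adjusted p = 0.0273. With so few counts in adjacent liver the fitted values depend on the prior count of the fit. Sult2a2 shared 62.1% of its windows with another gene, foremost Sult2a1, which was not tested and was highest in mA3 tumour 2, at 1.82 CPM. Within the Sult2a subfamily, 2 members thus fell and 1 rose; the summed level went from between 769 and 1462 CPM to between 18.6 and 605 CPM, without overlap.

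The remaining Sult genes did not pass. Sult1a1, the main phenol sulfotransferase of liver, had 265, 308, 119.6 and 237 CPM in adjacent liver and 268, 454, 151 and 182 CPM in tumours, which overlapped, with a log2 difference of 0.12 ± 0.31 (SE), adjusted p = 0.863. Its direction turned without vector mouse 9, without vector tumour 9 or without mA3 adjacent 1. Sult1d1, which sulfates dopamine and other catecholamines, stood at -0.65 ± 0.31 (SE), adjusted p = 0.259. Sult1e1, the estrogen sulfotransferase, and Sult4a1, a brain form with no well-defined substrate, were low throughout and had positive differences of 2.50 ± 0.87 (adjusted p = 0.139) and 2.32 ± 0.78 (adjusted p = 0.129). With 1 library left out they ran from 0.91 to 3.19 for Sult1e1 and from 1.25 to 3.23 for Sult4a1, and each passed in 2 of the 17 alternatives. Of the Sult4a1 signal, mA3 tumour 1 held 10.8 CPM and the other tumours between 0.631 and 1.41 CPM. Sult5a1 was at 45.6, 3.87, 0.246 and 2.15 CPM in the tumours of vector 1, vector 9, mA3 1 and mA3 2, against 13.2, 34.4, 31.4 and 22.2 CPM in adjacent liver, and its difference was -2.19 ± 0.81 (SE), adjusted p = 0.159. Sult1c2 stood at -0.54 ± 0.57 (SE), adjusted p = 0.626.

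Sult2a8 fell and Sult1a1 did not pass, and the make-up of the Sult transcripts differed between tissues. By FPKM, Sult2a8 made up between 49.99% and 75.7% of all Sult transcripts in adjacent liver, 51.6% in vector tumour 1 and 10.7%, 3.99% and 15.0% in vector tumour 9, mA3 tumour 1 and mA3 tumour 2. Sult1a1 made up between 10.4% and 23.5% in adjacent liver and 26.8%, 57.0%, 52.5% and 44.3% in the tumours. In the Ugt family Ugt2b1 held a mean share of 19.7% in adjacent liver and 8.98% in tumours, while Ugt2b5 held 34.6% and 33.4%. In the Gst family Gsta3 held 10.4% and 4.27%, while Gstp1 held 33.1% and 30.4%. Shares within a family add up to 100%, so a lower share of 1 gene raises the others.

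**Figure D4:**
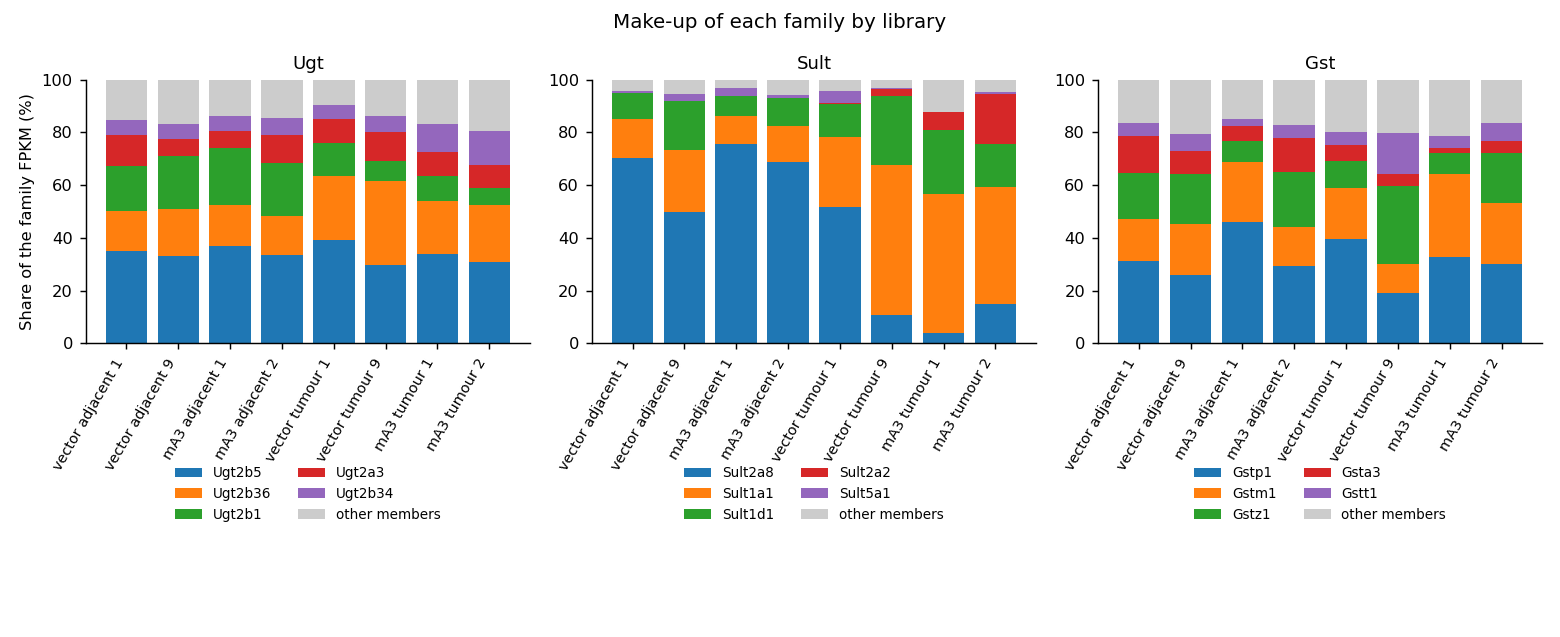
Share of each family's summed FPKM (percent, bars add to 100) held by its 5 leading members by mean share, in the 4 adjacent and then the 4 tumour libraries. Sult2a8 holds at most 15.0% in 3 of the 4 tumours, where Sult1a1 holds the largest share, vector tumour 1 keeps 51.6% Sult2a8, Sult2a2 reaches 18.98% in mA3 tumour 2, and the leading Ugt and Gst members hold more even shares.

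Of the 19 tested Gst genes 1 fell, Gstk1, the kappa-class enzyme of mitochondria and peroxisomes. Gstk1 (ENSMUSG00000029864, chr6:42245935-42250447) had 96.4 and 126 CPM in vector adjacent 1 and 9 and 90.3 and 103 CPM in mA3 adjacent 1 and 2, a narrow range. In tumours it had 96.9 and 43.2 CPM in vector tumour 1 and 9 and 17.1 and 23.4 CPM in mA3 tumour 1 and 2. Vector tumour 1 was at the level of adjacent liver, so the groups overlapped, and the other 3 tumours were lower. The log2 difference was -1.46 ± 0.30 (SE), adjusted p = 0.0385. Gsta3, the alpha-class enzyme that protects mice from aflatoxin, was the next by size among abundant members. It had 1954, 727, 1123 and 1647 CPM in adjacent liver of vector 1, vector 9, mA3 1 and mA3 2 and 911, 211, 272 and 269 CPM in the tumours. Vector tumour 1 lay within the adjacent range and well above the other tumours, and the log2 difference of -1.81 ± 0.52 (SE), adjusted p = 0.0878 did not pass. Gsta2 (-2.36 ± 0.82 (SE), adjusted p = 0.138) had the same pattern at a lower level. Gsta1 went the other way, with 83.3 CPM in mA3 tumour 1 and between 2.32 and 20.1 CPM in the other 7 libraries, at 0.97 ± 0.81 (SE), adjusted p = 0.524. Gsta1 and Gsta2 have reading frames 97.5% identical. Gsta1 shared 89.7% of its windows with another gene, foremost Gm3776, and Gsta2 shared 64.2%, so the values of both are uncertain.

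The mu and pi classes, which include the most abundant Gst transcripts, showed no member past the threshold. Gstp1, the leading Gst gene by FPKM, and its neighbour Gstp2 are close copies, as the first 120 bases of their reading frames show, with capitals at the 6 positions that differ:
Gstp1: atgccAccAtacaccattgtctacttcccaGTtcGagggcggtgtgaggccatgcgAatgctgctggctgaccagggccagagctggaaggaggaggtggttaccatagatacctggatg
Gstp2: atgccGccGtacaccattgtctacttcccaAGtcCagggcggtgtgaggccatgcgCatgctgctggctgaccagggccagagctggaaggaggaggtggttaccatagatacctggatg
The reading frames were 98.1% identical and shared 62.3% and 72.6% of windows, so counts of the pair are uncertain between its members. Gstp1 had 689, 346, 1471 and 587 CPM in adjacent liver of vector 1, vector 9, mA3 1 and mA3 2 and 947, 139.7, 679 and 299 CPM in tumours. The groups overlapped, and the log2 difference was -0.50 ± 0.62 (SE), adjusted p = 0.684, or -1.48 to -0.10 with 1 library left out. Gstm1, the leading mu-class gene, had 1327, 974, 2744 and 1107 CPM and then 1737, 303, 2474 and 868 CPM. Here both libraries of mA3 mouse 1 were highest and vector tumour 9 lowest, and the log2 difference was -0.19 ± 0.60 (SE), adjusted p = 0.891. Of the 7 mu-class genes, 4 were highest in mA3 adjacent 1 and 5 lowest in vector tumour 9. Over all 19 tested Gst genes, 5 were highest in mA3 adjacent 1 and 10 lowest in vector tumour 9, so the latter was not limited to the mu class. Vector tumour 9 was also lowest for 6 of 16 tested Ugt genes. The share of all genes highest or lowest in these libraries was not counted, so these counts describe single libraries and are not a result about the members. Gstm5 was the only Gst gene with all tumours above all adjacent libraries, at 0.45 ± 0.25 (SE), adjusted p = 0.328, a difference that did not pass.

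Of the theta, zeta and omega classes 0 members passed, and 3 of 5 tested were lower at an unadjusted p under 0.05. Gstz1, the maleylacetoacetate isomerase of tyrosine breakdown, had 846, 561, 581 and 918 CPM in adjacent liver and 544, 483, 362 and 416 CPM in tumours. Its groups did not overlap, but the gap between the lowest adjacent and the highest tumour library was small and the difference, -0.70 ± 0.28 (SE), adjusted p = 0.192, did not pass. Gsto1, which reduces dehydroascorbate, stood at -0.69 ± 0.22 (SE), adjusted p = 0.114. Gstt1, which acts on small halogenated compounds, had 263, 219, 196 and 241 CPM and then 288, 277, 225 and 172 CPM, with a log2 difference of 0.05 ± 0.23 (SE), adjusted p = 0.937. Its sign changed in 4 of the 17 alternatives.

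Over both plasmids, 12 of the 46 tested members had all tumours below all adjacent libraries, where 5.32% of all tested genes did: 9 Ugt, 2 Sult and 1 Gst. All tumours were above all adjacent libraries for 3 members, where 6.81% of all genes were. Taken mouse by mouse, tumour against its own adjacent library, nearly all Ugt genes were lower in each mouse. In vector 1, vector 9, mA3 1 and mA3 2, 15, 15, 14 and 15 of the 16 tested Ugt genes were lower in the tumour, with median log2 differences (CPM + 0.5) of -1.58, -1.75, -1.53 and -1.77. Of all tested genes between 47.6% and 50.9% were lower. Gst genes differed between mice, with 8, 16, 13 and 16 of 19 lower in the tumour and medians of 0.05, -0.98, -0.39 and -0.99. Sult genes were mixed in all mice but mA3 2, with 5, 6, 5 and 8 of 11 lower. In vector mouse 1, whose tumour lay near adjacent liver over all genes, the Ugt median was thus as low as in the other mice, while the Gst median was near 0.

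Within vector mice alone, tumour against adjacent liver, 0 members passed, and 0 of all 15009 genes passed in edgeR. At an unadjusted p under 0.05, 15 members did, against 9.31% of all genes, and DESeq2 called 6, 2 higher and 4 lower, where it called 1.55% of all genes. The smallest p belonged to Ugt1a6b, -2.50 ± 0.57 (SE), adjusted p = 0.435. Within mA3 mice 0 members passed either, where 1.19% of all genes did. Here 22 members had an unadjusted p under 0.05, against 20% of all genes. Gstk1 came closest, at -2.25 ± 0.43 (SE), adjusted p = 0.0538, followed by Ugt3a1 at -4.30 ± 0.86 (SE), adjusted p = 0.0564. With the mouse as a block, 10 members were called in mA3 mice, 9 lower and 1 higher, where that fit called 3.73% of all genes. The same comparison gave 18 calls in DESeq2, where 10.7% of all genes were called, 1 in limma-voom (0.74% of all) and 4 in limma fitted to log2(FPKM + 1) (2.63% of all), so this count turns on the model.

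Comparing plasmids addresses the question named by the series title, the effect of APOBEC3B on hepatocellular carcinoma. Between mA3 and vector tumours 0 members passed in edgeR, as did 0 genes of all 15009. At an unadjusted p under 0.05, 11 members did, against 14.2% of all genes, and DESeq2 called 5, where it called 3.38% of all genes. Gstk1 had the smallest p, -1.79 ± 0.43 (SE), adjusted p = 0.288, with 96.9 and 43.2 CPM in vector tumours and 17.1 and 23.4 CPM in mA3 tumours. Sult5a1 (-4.33 ± 1.26 (SE), adjusted p = 0.295), Sult2a7 (-3.81 ± 1.17 (SE), adjusted p = 0.295) and Sult2a8 (-3.04 ± 1.01 (SE), adjusted p = 0.310) followed. For Sult5a1, Sult2a7 and Sult2a8 vector tumour 1 was high and vector tumour 9 much nearer the mA3 tumours. In 14 members both mA3 tumours were below both vector tumours, where 27.4% of all tested genes were, a share near the background. In adjacent liver 0 members passed between plasmids and 0 had an unadjusted p under 0.05, against 1.03% of all genes; limma and DESeq2 also called 0. Sult2b1 had the smallest p there, 3.76 ± 1.99 (SE), adjusted p = 1.00. That value rested on 3 counts over all adjacent libraries together, so its size depends on the prior count of the fit.

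The interaction asked whether the tumour difference differed between plasmids. 0 members passed in edgeR and in DESeq2, which called 0.08% of all genes, and 4 had an unadjusted p under 0.05, against 4.99% of all genes. They were Sult5a1 (-4.51 ± 1.62 (SE), adjusted p = 0.842), Gstk1 (-1.59 ± 0.59 (SE), adjusted p = 0.842), Sult2a7 (-3.96 ± 1.48 (SE), adjusted p = 0.842) and Sult2a8 (-3.16 ± 1.35 (SE), adjusted p = 0.842). The difference of Sult5a1 was -4.45 in mA3 and 0.06 in vector mice, and those of the other 3 were below 0 in both and further below in mA3 mice. For all 4 vector tumour 1 was the highest tumour library. Its part in these values was not tested beyond leaving it out, which gave a Sult5a1 value of -1.83, a Sult2a7 value of -1.73 and a Gstk1 value of -0.89.

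**Figure D5:**
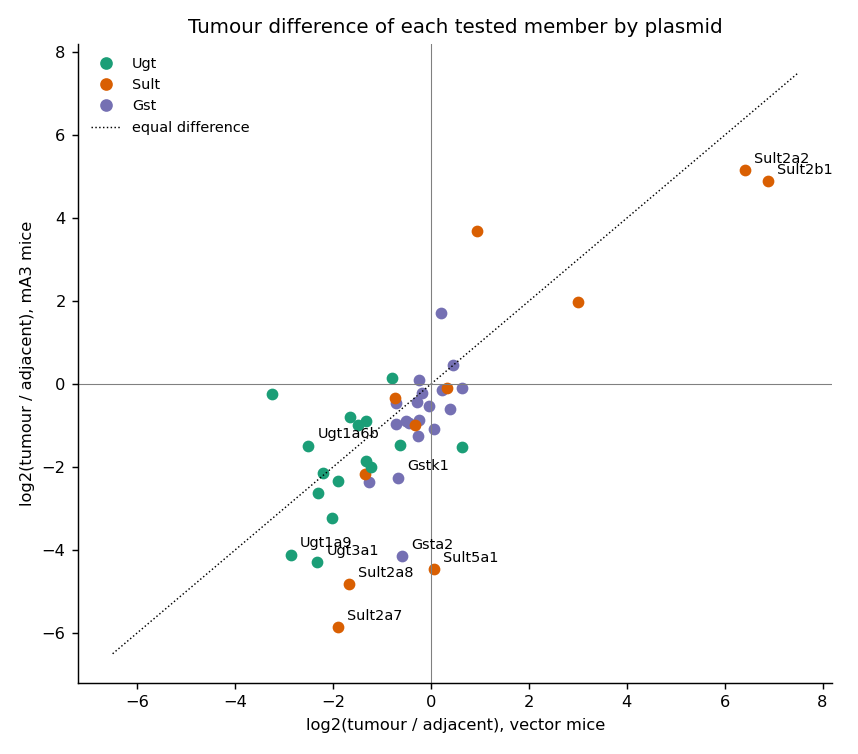
Log2 difference between tumour and adjacent liver in vector mice (horizontal axis) and in mA3 mice (vertical axis) for the 46 tested members, coloured by family; the dotted line marks equal differences. The comparisons use different mice. Sult2a7, Sult2a8, Sult5a1, Gsta2 and Gstk1 lie below the line, Sult2a2 and Sult2b1 are high in both, and no interaction passed.

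Genes that supply, join or remove the same groups were counted from lists chosen with results of these data known. For these and the lists below, 1.69% of all tested genes fell, 2.94% rose and 49.5% were below 0. Of 6 tested microsomal and other glutathione transferases 1 fell: Mgst1, a membrane-bound enzyme, had 3934, 4156, 4119 and 3894 CPM in adjacent liver of vector 1, vector 9, mA3 1 and mA3 2 and 2710.0, 1061, 612 and 493 CPM in tumours, with no overlap (-1.98 ± 0.37 (SE), adjusted p = 0.0321). Of 14 other conjugating enzymes 3 fell and 0 rose. These were Nnmt, which methylates nicotinamide (-3.72 ± 0.69 (SE), adjusted p = 0.0311), Baat, which joins bile acids to taurine or glycine (-1.43 ± 0.31 (SE), adjusted p = 0.0450), and Glyat, which joins glycine to acyl groups (-1.39 ± 0.31 (SE), adjusted p = 0.0486). Their list had 12 of 14 differences below 0 and a median of -1.18, against a median of 0.01 over all genes.

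Of 5 genes that supply UDP-glucuronate 1 rose, Pgm1 (1.57 ± 0.32 (SE), adjusted p = 0.0385), and Ugdh, which makes UDP-glucuronate, stood at -1.27 ± 0.46 (SE), adjusted p = 0.154. Of 8 genes of PAPS supply 1 fell, Bpnt1, which breaks down the spent donor (-1.03 ± 0.22 (SE), adjusted p = 0.0445), while the synthases Papss1 and Papss2 stood at 0.03 ± 0.30 and -0.48 ± 0.38 (adjusted p = 0.973 and 0.502). Of 17 genes of glutathione synthesis and turnover, 11 were below 0 (median -0.69) and 2 fell, Cth, which makes cysteine (-1.85 ± 0.28 (SE), adjusted p = 0.0199), and Ggt6 (-1.77 ± 0.36 (SE), adjusted p = 0.0380). One rose, the cystine importer Slc7a11 (4.13 ± 0.76 (SE), adjusted p = 0.0293), which had 0.0573, 0.995, 9.99 and 10.4 CPM in the tumours of vector 1, vector 9, mA3 1 and mA3 2 and at most 0.174 CPM in adjacent liver. Vector tumour 1 lay below every adjacent library and the other 3 tumours above them. Of 6 export pumps 1 rose, Abcc4 (1.09 ± 0.23 (SE), adjusted p = 0.0426). Its log2 difference was 2.71 ± 0.34 (SE) in mA3 mice alone, so the rise over both plasmids came from the mA3 mice. Abcc4 stood 2.99 ± 0.34 (SE) higher in mA3 than in vector tumours, which did not pass (adjusted p = 0.268). Of 5 enzymes that remove conjugates 0 rose or fell.

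Of 22 regulators known for these families 0 rose or fell, and 16 were below 0 (median -0.22), where 49.5% of all genes were. Ahr, the dioxin receptor, had the smallest p (-0.98 ± 0.30 (SE), adjusted p = 0.105), followed by Nr1i3, the constitutive androstane receptor (-1.27 ± 0.41 (SE), adjusted p = 0.120). Nfe2l2, which encodes NRF2, stood at 0.27 ± 0.28 (SE), adjusted p = 0.620. Of 13 NRF2 targets outside the families 1 rose (Slc7a11) and 0 fell. Of 12 genes known to be higher in male mouse liver 3 fell and 0 rose, where 1.69% of all genes fell and 2.94% rose. Those that fell were Elovl3 (-3.99 ± 0.68 (SE), adjusted p = 0.0249), Moxd1 (-5.33 ± 0.97 (SE), adjusted p = 0.0286) and Cyp7b1 (-3.99 ± 0.83 (SE), adjusted p = 0.0406). Of 15 genes known to be higher in female liver 3 rose, Prom1 (3.69 ± 0.30 (SE), adjusted p = 0.0129), Cyp2a4 (3.51 ± 0.40 (SE), adjusted p = 0.0139) and Cyp2b9 (3.80 ± 0.73 (SE), adjusted p = 0.0345), and 1 fell, Acot3 (-2.95 ± 0.52 (SE), adjusted p = 0.0261).

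Markers of cell types in the tissue were read beside these values. The 8 hepatocyte markers summed to between 40870 and 110000 CPM in adjacent liver and between 90750 and 213500 CPM in tumours, with the 3 highest sums in vector tumour 9, mA3 tumour 1 and mA3 tumour 2. A sum is weighted to the most abundant genes: gene by gene, 5 of the 8 differences were above 0, with a median log2 difference of 0.31. Of the 8, 1 rose, Apoa1, the main protein of high-density lipoprotein (1.66 ± 0.36 (SE), adjusted p = 0.0450), and 0 fell. Of the others Cps1 stood at -1.26 ± 0.35 (SE), adjusted p = 0.0820 and Alb at 1.55 ± 0.56 (SE), adjusted p = 0.153. Bile duct markers summed to between 41.6 and 57.0 CPM in adjacent liver and between 103 and 614 CPM in tumours, with Spp1 the 1 of 5 tested that rose. Macrophage and Kupffer markers summed to between 110 and 278 CPM and between 70.2 and 124 CPM, with Clec4f the 1 of 6 that fell. Stellate and fibroblast markers summed to between 29.2 and 58.7 CPM and between 44.9 and 169 CPM, with 0 of 6 called. Erythroid markers summed to between 167 and 265 CPM and between 49.1 and 218 CPM, with Alas2 the 1 of 3 that fell. Of the endothelial, T and NK cell, B and plasma cell and neutrophil markers 0 passed. No marker was at 0 in every library. Their part in the differences of the conjugating genes was not tested.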

How the data were processed

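RNA-seq read counts per gene were analysed as the authors deposited them, for 8 libraries of 4 mice. The deposited FPKM values are the authors' own, and were used only for levels between genes, shares and 1 alternative fit. The libraries were standard Illumina libraries from Trizol RNA, per the labels' protocols. Which aligner and counter were used, and whether by strand, is not given in the sources used. Among the tools in the submitters' processing notes is Agilent Feature Extraction 10.7, a microarray program, and the build there is mm8; the gene positions in the deposited table are those of GRCm38, since 81.6% of 34267 matched identifiers start and end within 1 base of GENCODE vM21. Genes whose strands overlap cannot be told apart where strand was not used.

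Counts were tested with edgeR 4.0.16 (R 4.3.3): genes kept by filterByExpr (15009), TMM scaling, 1 coefficient for each of the 4 groups, quasi-likelihood F-tests with 4 residual degrees of freedom and Benjamini-Hochberg adjustment over all tested genes, called at adjusted p under 0.05. Log2 differences are tumour minus adjacent or mA3 minus vector; the SE is the difference divided by the root of F. Totals ran from 12969929 to 22882531 counts and the common coefficient of variation was 39.1%. Alternatives used DESeq2 1.42.0, limma 3.58.1, other scalings and filters, and left-out libraries. Exact intervals cover counting error only.

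Libraries of a number are taken from the same mouse by their titles; over all genes their deviations from the group means correlated at 0.107 in vector and 0.175 in mA3 mice. The main test had no mouse term, and the fit with the mouse as a replicate block is given where it changes a count by over 1.5 times. Members, lists and tests were chosen with earlier results of these data known. Members are named if called, if among the 5 highest of a family by FPKM, if among the 3 smallest p of a family in a direction, or if alone in their subfamily; list genes if called, otherwise the 1 or 2 of smallest p. Other genes named (among them Nfe2l2, Papss1, Papss2, Ugdh, Alb and Cps1) were chosen after their values were seen. Promoters were read with Biopython 1.88 and Python 3.11.15; figures were drawn with matplotlib 3.10.9.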

Additional observations from a re-analysis of the deposited data

Results flagged for a closer look

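In groups of 4 libraries (both plasmids together), 1 library stood apart from the other 3 for 15 of 85 groups of values. The mark was a gap above Dixon's 95% critical share of the range. Values were those of named members (with Sult3a1) that reached 1 CPM and the 3 family sums. For independent normal values about 1 in 20 would pass. Here all groups come from the same 8 libraries and members were named partly by their values, so the 15 groups cannot be set against that rate. In 8 of these, vector tumour 1 was the highest tumour: Gsta2 at 36.1 CPM, Gsta3 at 910.9 CPM, Sult1b1 at 15.4 CPM, Sult2a7 at 5.10 CPM, Sult2a8 at 599.2 CPM, Sult5a1 at 45.6 CPM, Ugt1a6a at 30.3 CPM and Ugt1a9 at 3.04 CPM. Of these genes, Sult1b1, Sult2a7, Sult2a8 and Ugt1a9 are among those that fell. Leaving out vector tumour 1 changed the number of members called from the 11 found with it, as given above.

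Among the other tumours, Sult4a1 was highest in mA3 tumour 1 at 10.8 CPM (the others held at most 1.41 CPM), as was Ugt1a6b at 7.09 CPM. In mA3 tumour 2, Gstm7 was highest at 56.6 CPM and Ugt2b37 lowest at 0.456 CPM. Among adjacent libraries, Gstp2 was highest in mA3 adjacent 1 at 129.2 CPM, Ugt2b1 lowest in vector adjacent 9 at 538.7 CPM, and Sult3a1, which was too low to test, highest in vector adjacent 9 at 7.69 CPM against at most 0.412 CPM in the others.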

How the results depend on the processing

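Between tumour and adjacent liver over both plasmids, 11 members were called; the number was 29 with no filter, 25 with DESeq2, 18 without both libraries of vector mouse 9, and 0 to 19 with 1 library left out. With the mouse as a replicate block it was 16, the 11 among them. In vector mice the number of 0 became 15 with no filter, 6 with DESeq2 and 0 to 1 with 1 library left out. In mA3 mice 0 became 23 with no filter, 19 without vector mouse 9, 10 with the replicate block, 18 with DESeq2, 1 with limma-voom, 4 with limma on log2(FPKM + 1), and 0 to 13 with 1 library left out, 13 being without either vector tumour. Between plasmids in tumours 0 became 11 with no filter, 10 without vector mouse 9, 5 with DESeq2 and 0 to 2 with 1 library left out. In adjacent liver it was 1 with no filter and for the interaction 6, and 0 with any library left out in both. RLE and upper-quartile scaling and the stricter filter moved none of the 6 counts by over 1.5 times. The fits also differ in how many of all genes they call: in mA3 mice DESeq2 called 10.7%, where edgeR called 1.19%. Apart from the fits whose share is given above, that share is not given here. These counts thus show how calls move with the fit and are not a result about the members. The Sult ratio was 0.901 without Sult2a8. Signs turned for Gstm1 (0.084), Gstt1 (-0.0097) and Sult1a1 (-0.049) without vector mouse 9, and for Gstp2 with the replicate block (-0.031) and limma-voom (-0.014). With 1 library left out, Gsta1 ran from -0.17 to 1.72, Gstm1 from -1.07 to 0.20, Gstp2 from -0.55 to 0.67, Gstt1 from -0.061 to 0.13, Sult1a1 from -0.10 to 0.40 and Sult1c2 from -1.07 to 0.057. The cause was not tested. A lone library in such a fit is assumed to vary like the other groups. With 2 libraries a group, low members such as Sult2b1 rest on few counts.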

Other observations

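Vector adjacent 9 also held several genes known to be higher in female mouse liver above the other adjacent libraries. Sult3a1, a sulfotransferase of female mouse liver, had 7.69 CPM there. Cux2, a female-biased transcription factor, had 14.7 CPM against at most 0.892 CPM in the other 3 and Cyp3a41a 39.8 CPM against at most 3.02 CPM. Xist stood between 0.137 and 0.573 CPM and the Y-linked Ddx3y between 66.7 and 105 CPM over all 8 libraries, so all libraries carried Y-linked RNA. These genes were chosen after their values were seen. How many of the 15 listed female-biased genes were highest in vector adjacent 9 was not counted. Of those 15, 4 (Cyp2b13, Cyp2a4, Prom1 and Hao2) were higher in mA3 than in vector adjacent liver, and 0 of the 15 passed in that comparison.

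In mA3 tumour 1, which held the highest Gsta1 (83.3 CPM), 8 of 13 tested NRF2 targets outside the families were also higher than in any other library, and 1, Gclm, was lower than in any other. Of the 8, Srxn1, which repairs oxidised peroxiredoxins, had 346 CPM (at most 115 elsewhere), Cbr3, a carbonyl reductase, 38.5 CPM (at most 9.08), Nqo1, a quinone reductase, 37.5 CPM (at most 11.1), and Gclc, which catalyses the first step of glutathione synthesis, 603 CPM (at most 328). This is 1 library, with no test, and how many of all genes were highest in it was not counted. On the first principal component it lay furthest from the adjacent libraries, at 102. The Gsta1 value is itself uncertain, since 89.7% of the Gsta1 windows were shared with another gene.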
